A study of Mus musculus with 36 samples.

Results

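Cochleae of adrenalectomized (ADX) mice were compared with cochleae of sham-operated mice at circadian time 4 (CT04), in the rest phase of the mouse. The comparison rests on 6 of the 36 RNA-seq libraries of the series, 3 labelled ADX and 3 labelled sham at CT04, chosen by their status and time labels and not by any measured value. All mice were of the strain CBA/Sca and 12 weeks old, and both groups are labelled as cochlea, the part of the inner ear that senses sound. ADX mice had lost the adrenal glands, and sham mice had undergone surgery with the adrenals left in place. The labels do not state hormone replacement, the interval after surgery or whether animals were pooled. Another 30 libraries, 3 ADX and 3 sham at each of CT08, CT12, CT16, CT20 and CT24, served to estimate the spread and to set the CT04 values against those of other hours.

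Adrenal glands release corticosterone, the main glucocorticoid of mice, together with aldosterone and adrenaline. Corticosterone is low in the early rest phase and climbs towards the active phase, so that CT04 lies away from its daily crest. Glucocorticoids act through the receptor encoded by Nr3c1, which binds DNA and raises genes such as Fkbp5 and Tsc22d3, entrains peripheral clocks, and changes the traffic of leukocytes: they release neutrophils from bone marrow and lower circulating lymphocytes. The mouse cochlea lies inside the temporal bone, whose marrow makes neutrophils and red cells, so that RNA of a dissected cochlea can hold marrow transcripts.

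Library totals lay between 21673214 and 27509874 counts in the 3 ADX libraries and between 26749868 and 28995197 in the 3 sham libraries. Expression is given as CPM, the read count of a gene relative to its library's size, here with edgeR's TMM library sizes. Cochlear markers were present in both groups. Coch, which encodes the extracellular protein cochlin, averaged 4216 ± 629 CPM in ADX and 4789 ± 820.3 CPM in sham (SD, n = 3 each). The hair cell myosin Myo6 averaged 192 ± 5.85 CPM in ADX and 179.6 ± 11.7 CPM in sham. Several of the 6 libraries stood apart. On the first principal component of the 6 libraries, which held 35.8% of the variance, ADX replicate 1 lay at -30.5, the other ADX libraries at -1.3 and 2.3, and the sham libraries at 1.4 and above. Sham replicate 2 held 1604 CPM of Ttr, the transthyretin transcript abundant in choroid plexus and liver, against 16.7 to 18.3 CPM in ADX and 18.4 and 33.5 CPM in the other sham libraries. Sham replicate 1 was high in transcripts of cell cycle, interferon response and red cells, and ADX replicate 2 lay nearer to sham in clock transcripts, as described with those genes.

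No gene passed edgeR's quasi-likelihood test at CT04 after Benjamini-Hochberg adjustment over all 22556 genes tested, with a smallest adjusted p of 0.0733 and a threshold of 0.05. The background for every count of genes is therefore 0% by that test. At an unadjusted p under 0.05 there were 2097 genes (9.30%), of which 881 (3.91%) were higher and 1216 (5.39%) lower in ADX. DESeq2, run as an alternative, called 73 of 18108 genes (0.403%), 15 of them higher (0.0828%) and 58 lower (0.320%) in ADX, and limma-voom called 0. The CPM of the 3 ADX and 3 sham libraries did not overlap for 1821 genes (8.07%) that were higher and 1909 genes (8.46%) that were lower in ADX. Typical differences were small, with a median absolute log2 fold change of 0.10 and a median of -0.002 over all tested genes, where a positive value means a higher level in ADX. The log2 fold change was positive for 49.5% and negative for 50.5% of all genes. In the text, a p is unadjusted unless called adjusted, and values after ± are SD of CPM over 3 libraries or SE of a log2 fold change.

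Genes of neutrophils and their marrow precursors had lower levels in ADX than in sham cochleae, although none passed edgeR after adjustment. All 15 tested members of the neutrophil and granulocyte precursor list had a negative log2 fold change, from -0.70 to -0.16 with a median of -0.62, against a median of -0.002 over all genes. Of these 15 genes, 11 had an unadjusted p under 0.05, against 5.39% of all genes in that direction, 11 did not overlap between the groups, against 8.46%, and 5 were called by DESeq2, against 0.320%. In bulk tissue, fewer cells of a type and less RNA per cell cannot be told apart.

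Promoters of 3 members are shown because they hold a binding motif of C/EBP factors, the family whose member Cebpe drives the making of neutrophil granules. The sequences run 5′ to 3′ from 250 bases before to 50 after the start of each gene, from RefSeq on GRCm38.p6, and capitals mark the motif TTGCNNAA or the same motif read on the other strand, TTNNGCAA. S100a9 encodes a subunit of calprotectin (chr3:90695672-90695971, minus strand), Mmp8 neutrophil collagenase (chr9:7558179-7558478, plus strand) and Ltf lactoferrin (chr9:111019042-111019341, plus strand).
S100a9: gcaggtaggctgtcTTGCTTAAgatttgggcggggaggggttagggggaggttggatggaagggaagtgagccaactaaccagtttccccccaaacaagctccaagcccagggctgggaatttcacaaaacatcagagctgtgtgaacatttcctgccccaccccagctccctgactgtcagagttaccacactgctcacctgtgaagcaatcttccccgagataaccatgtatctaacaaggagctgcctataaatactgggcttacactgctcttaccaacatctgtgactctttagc
Mmp8: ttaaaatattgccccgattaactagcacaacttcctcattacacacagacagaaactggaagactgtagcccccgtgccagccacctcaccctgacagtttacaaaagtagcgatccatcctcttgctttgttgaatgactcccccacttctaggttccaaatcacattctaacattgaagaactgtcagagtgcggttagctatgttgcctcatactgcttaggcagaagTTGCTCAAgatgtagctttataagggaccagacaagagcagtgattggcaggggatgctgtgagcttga
Ltf: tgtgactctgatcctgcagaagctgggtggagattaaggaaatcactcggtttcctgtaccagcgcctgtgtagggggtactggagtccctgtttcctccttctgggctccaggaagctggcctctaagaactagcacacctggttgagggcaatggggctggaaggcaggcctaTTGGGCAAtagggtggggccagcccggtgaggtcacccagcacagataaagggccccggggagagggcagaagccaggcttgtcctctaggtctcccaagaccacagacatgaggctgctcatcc

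The motif was found in 6 of the 13 list members whose promoter could be matched (S100a9, Ngp, Ltf, Retnlg, Mmp8 and Lcn2) and in 3547 of all 32851 promoters (10.8%). A match describes these letters only, and binding was not measured.

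Among receptors of the neutrophil, Cxcr2, the chemokine receptor that guides neutrophils out of the marrow (ENSMUSG00000026180, chromosome 1, 74153989 to 74161246 on GRCm38), had the smallest p of all genes. Its level was 33.6, 34.2 and 35.1 CPM in ADX, against 53.2, 63.3 and 60.9 CPM in sham. The groups did not overlap, and the ADX libraries lay close together. The log2 fold change was -0.79 ± 0.14, with an adjusted p of 0.0733 by edgeR and of 0.000494 by DESeq2. Fpr1, the receptor for bacterial formyl peptides, stood at 9.94, 8.74 and 9.31 CPM in ADX, against 13.5, 18.7 and 15.98 CPM in sham, likewise with no overlap. Its log2 fold change was -0.79 ± 0.15 (adjusted p = 0.0733 by edgeR, 0.00203 by DESeq2). Ccr1, another chemokine receptor of myeloid cells, averaged 13.2 ± 0.739 CPM in ADX and 20.4 ± 0.139 CPM in sham, a log2 fold change of -0.62 ± 0.15 (adjusted p = 0.150 by edgeR, 0.0316 by DESeq2).

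Transcripts of granule and cytosolic proteins of neutrophils lay in the same direction. S100a8, the partner of S100a9 in calprotectin (ENSMUSG00000056054, chromosome 3, 90668978 to 90670035), stood at 961, 861 and 867 CPM in ADX, against 1373, 1426 and 1429 CPM in sham. All 3 ADX libraries were below all 3 sham libraries, and the log2 fold change was -0.65 ± 0.14 (adjusted p = 0.144 by edgeR, 0.00788 by DESeq2). S100a9, named here for its promoter, averaged 1415 CPM in ADX and 2206 CPM in sham, a log2 fold change of -0.64. Mmp8 stood at 102, 87.5 and 106 CPM in ADX, against 141, 178 and 149 CPM in sham (log2 fold change -0.66 ± 0.15). Retnlg, a resistin-like protein of granulocytes, stood at 113, 130.5 and 124 CPM in ADX, against 170.5, 200.2 and 196 CPM in sham (log2 fold change -0.62 ± 0.14). Both were called by DESeq2 (adjusted p = 0.0166) and not by edgeR (adjusted p = 0.150). Ltf averaged 625 ± 57.5 CPM in ADX and 965 ± 66.8 CPM in sham, and Lcn2, the siderophore-binding lipocalin of neutrophil granules, 282 ± 16.15 CPM in ADX and 433 ± 27.8 CPM in sham. Their groups did not overlap, and neither passed edgeR or DESeq2 (adjusted p from 0.0681 to 0.229). The transcription factor Cebpe itself stood at 15.9, 18.3 and 13.8 CPM in ADX, against 22.5, 27.8 and 26.0 CPM in sham (log2 fold change -0.67 ± 0.16, adjusted p = 0.150 by edgeR, 0.0242 by DESeq2).

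Other transcripts of leukocytes were among those of smallest p. Klra17, a lectin-like receptor of the Ly49 family, stood at 2.104, 2.31 and 2.06 CPM in ADX, against 3.98, 4.47 and 4.73 CPM in sham, a log2 fold change of -1.02 ± 0.19. Gpr65, a proton-sensing receptor of leukocytes, stood at 5.64, 6.65 and 5.84 CPM in ADX, against 10.04, 9.62 and 8.74 CPM in sham (log2 fold change -0.65 ± 0.12). Gapt, a membrane adaptor of blood cells that binds GRB2, averaged 12.5 ± 0.320 CPM in ADX and 17.8 ± 1.147 CPM in sham (log2 fold change -0.51 ± 0.10). None of the 3 overlapped between the groups, and each had an adjusted p of 0.0733 by edgeR and passed DESeq2 (adjusted p from 0.00203 to 0.00444). Members of the Ly49 family are near-identical, so the level of Klra17 is uncertain where reads were split between copies. Ckap4, a membrane protein of the endoplasmic reticulum, averaged 77.0 ± 1.05 CPM in ADX and 96.5 ± 4.26 CPM in sham (log2 fold change -0.33 ± 0.06, adjusted p = 0.0764 by edgeR, 0.00371 by DESeq2). Among the 58 genes that DESeq2 called lower were also Csf3r, the receptor of the granulocyte growth factor (log2 fold change -0.60), and the neutrophil surface markers Ly6g (-0.71) and Cd177 (-0.63) and the histone-modifying enzyme Padi4 (-0.60). These 4 genes were named after their values had been seen.

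**Figure D1:**
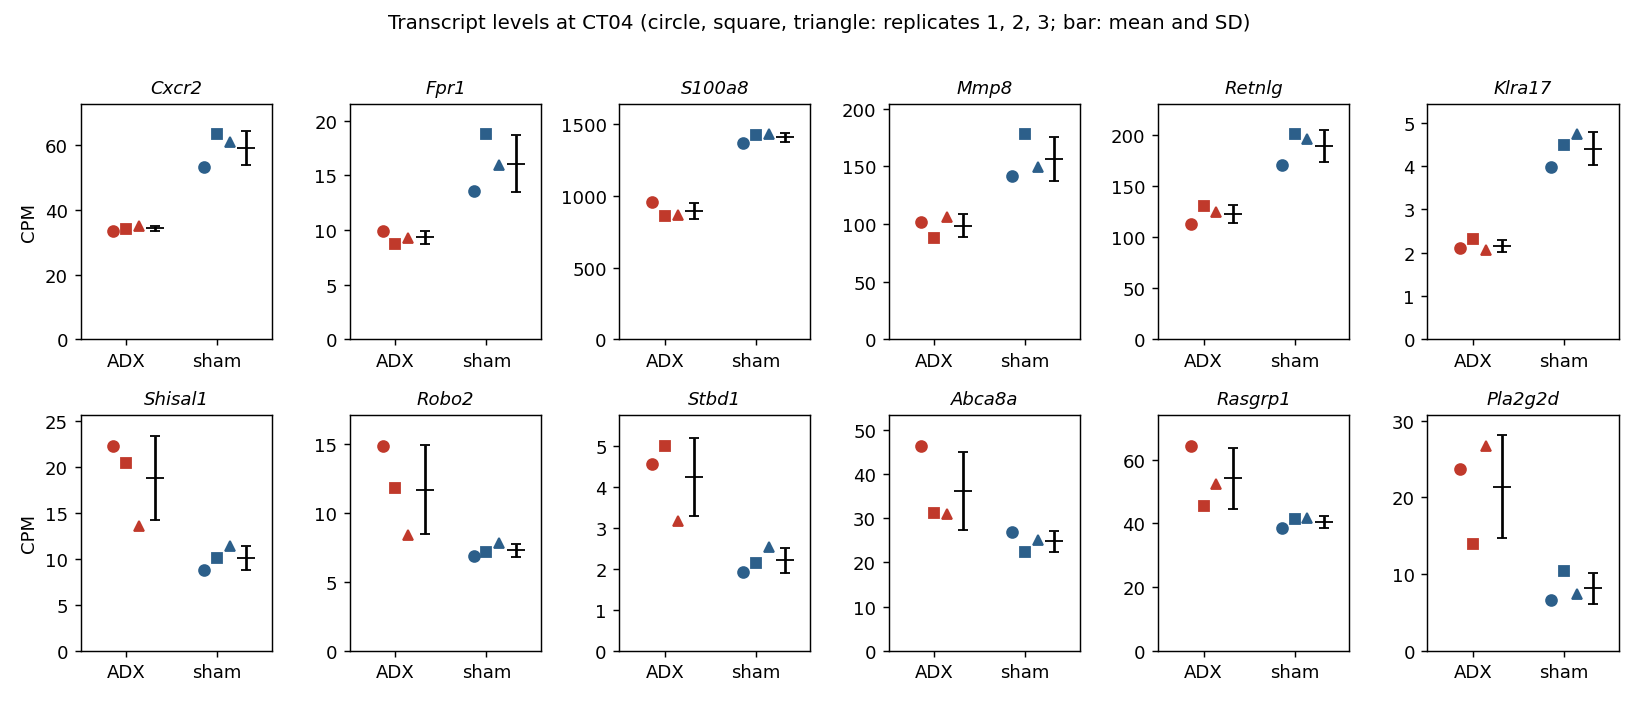
Level in CPM of 12 named transcripts in the 3 ADX libraries (left) and 3 sham libraries (right) at CT04, with the mean and SD of each group. The upper row holds transcripts lower in ADX, such as S100a8 at 861 to 961 CPM in ADX and 1373 to 1429 CPM in sham, and the lower row transcripts higher in ADX. The groups overlap for none of the 12, but lack of overlap was part of the rule by which some genes were named. Over all tested genes, 16.5% do not overlap in either direction.

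Against the other hours, the ADX cochleae of CT04 had the lowest levels of neutrophil transcripts in the series. The neutrophil and granulocyte precursor score, the mean of centred log2 CPM over the 15 genes, was -0.52, -0.47 and -0.62 in the ADX libraries and -0.06, 0.04 and -0.06 in the sham libraries of CT04. The other 30 libraries lay between -0.41 and 0.53, so that all of them lay above the 3 ADX libraries of CT04. The summed level of the 15 genes was 6157, 5866 and 5524 CPM in ADX and 8571, 9073 and 8325 CPM in sham at CT04. For Cxcr2, Fpr1, S100a8, Mmp8, Klra17, Gapt and Gpr65, none of the 30 libraries of other times lay below the highest ADX library of CT04. For Retnlg, Ccr1, Cd177 and Mmp9, another member of the list, 1 of the 30 did. In ADX, mean Cxcr2 was 34.3, 61.3, 65.0, 63.3, 54.4 and 67.5 CPM from CT04 to CT24, and in sham 59.1, 53.0, 66.7, 81.0, 67.7 and 80.3 CPM. The sham level of CT04 was thus near that of sham at CT08, and the ADX level was the lowest of the 12 groups.

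Averaged over the other 5 times, where no library is shared with CT04, the same 15 genes were all negative with a median of -0.14. The difference between the CT04 effect and the mean effect of the other times had an unadjusted p under 0.05 for 10 of the 15 genes, against 6.08% of all genes (2.54% higher and 3.54% lower). After adjustment the difference was called for 0 of 22556 genes by edgeR (1372 at an unadjusted p under 0.05) and for 0 by DESeq2. For Cxcr2 the CT04 effect minus the mean effect of the other times was -0.63 on the log2 scale (adjusted p = 0.623). Median log2 fold changes of the list were 0.13 at CT08, -0.17 at CT12, -0.18 at CT16, -0.08 at CT20 and -0.32 at CT24.

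**Figure D2:**
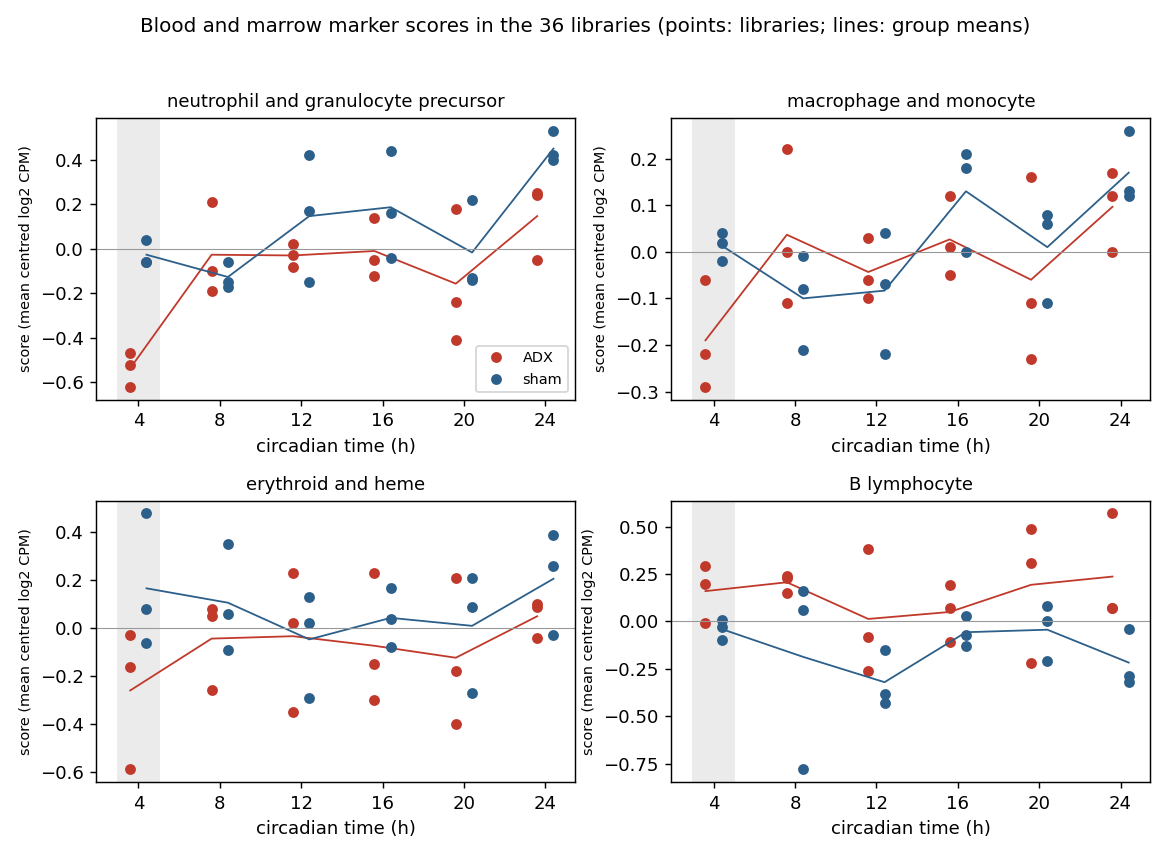
Mean centred log2 CPM of 4 marker lists in each of the 36 libraries by circadian time, ADX left of sham at each time, with lines through the group means and CT04 shaded. The 3 ADX libraries of CT04 hold the 3 lowest neutrophil scores, from -0.62 to -0.47.

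Macrophage and monocyte genes pointed the same way with smaller values. Of 12 members, 10 were negative with a median of -0.24, 5 had an unadjusted p under 0.05, against 5.39% of all genes lower, and 5 did not overlap, against 8.46%. Lyz2, the lysozyme of macrophages and neutrophils, stood at 977, 1014 and 939.5 CPM in ADX, against 1297, 1521 and 1289 CPM in sham (log2 fold change -0.49 ± 0.15, adjusted p = 0.259). Adgre1, which encodes the macrophage antigen F4/80, averaged 34.3 ± 2.28 CPM in ADX and 40.6 ± 2.68 CPM in sham (log2 fold change -0.24 ± 0.10, adjusted p = 0.423). C1qb, a subunit of the complement starter C1q that macrophages make, stood at 66.4, 92.1 and 75.9 CPM in ADX, against 96.7, 98.0 and 93.4 CPM in sham (adjusted p = 0.414). ADX replicate 2 lay close to sham there, and the groups did not overlap. The median of the list was -0.15 without ADX replicate 1. Over the other 5 times the median was -0.005, with 7 of 12 members negative.

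Red cell transcripts had lower means in ADX but varied widely within each group. All 14 tested members of the erythroid and heme list were negative, with a median of -0.41, and 9 had an unadjusted p under 0.05, against 5.39% of all genes lower. Of the 14, 5 did not overlap between the groups, against 8.46%. The median was -0.25 without ADX replicate 1 and -0.23 without sham replicate 1. Hbb-bs, an adult beta globin chain, stood at 6401, 9882 and 9135 CPM in ADX, against 15421, 11906 and 10330.0 CPM in sham (log2 fold change -0.57 ± 0.20, adjusted p = 0.358). Alas2, the first enzyme of heme synthesis in red cells, stood at 477, 742 and 667 CPM in ADX, against 1151, 853 and 718 CPM in sham, with ADX replicate 2 above sham replicate 3. ADX replicate 1 was lowest and sham replicate 1 highest for both genes, and the log2 fold change of Hbb-bs was -0.39 without ADX replicate 1 and -0.39 without sham replicate 1. The globin genes are close copies, so that their single levels are uncertain. Summed over the erythroid and heme list, the level was 14790 to 22570 CPM in ADX and 22950 to 34600 CPM in sham.

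Cell cycle and replication genes followed the same libraries. All 16 members were negative with a median of -0.22, which was -0.065 without sham replicate 1. Of the 16, 7 did not overlap, against 8.46% of all genes lower, and 1 had an unadjusted p under 0.05, a share near the 5.39% of all genes. The summed level of the cell cycle and replication list was 2351, 2530 and 2576 CPM in ADX and 3522, 2614 and 2558 CPM in sham, so that sham replicate 1 alone lay clearly above ADX. Tyms, thymidylate synthase, averaged 32.9 ± 2.61 CPM in ADX and 40.7 ± 8.28 CPM in sham, with 50.2 CPM in sham replicate 1. Without sham replicate 1 its log2 fold change was -0.13, against -0.30 with it. Aurka, a mitotic kinase, had -0.18 without and -0.32 with that library.

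All 14 interferon-stimulated genes were negative at CT04, with a median of -0.33, which was -0.14 without sham replicate 1. An unadjusted p under 0.05 was found for 3, against 5.39% of all genes lower, and 4 had no overlap, against 8.46%. Over the mean of the other 5 times 12 of 14 were positive with a median of 0.12, but by hour the median was -0.016 at CT08, 0.11 at CT12, 0.38 at CT16, -0.011 at CT20 and -0.038 at CT24. Isg15, a ubiquitin-like modifier, stood at 8.87, 8.34 and 9.76 CPM in ADX, against 18.1, 12.8 and 11.12 CPM in sham (log2 fold change -0.64 ± 0.23, adjusted p = 0.382). Mx1, an antiviral GTPase, stood at 2.82, 3.00 and 3.52 CPM in ADX, against 8.64, 3.76 and 4.45 CPM in sham. Its log2 fold change was -0.84 ± 0.29, and -0.40 without sham replicate 1. The effect of Mx1 at CT04 lay 1.07 below its mean effect at the other times on the log2 scale (adjusted p of the difference = 0.673). The summed level of the interferon-stimulated list was 344, 311 and 325 CPM in ADX and 507.5, 368 and 355.5 CPM in sham.

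T and NK cell genes had mostly negative and B cell genes mostly positive log2 fold changes, and none passed edgeR or DESeq2. Among 13 members of the T and NK lymphocyte list, 11 were negative with a median of -0.24, of which 1 had an unadjusted p under 0.05, a share near the 5.39% of all genes lower. It was Cd3d, a chain of the T cell receptor complex, at 4.79, 4.41 and 4.15 CPM in ADX, against 6.37, 7.19 and 7.38 CPM in sham (log2 fold change -0.65 ± 0.17, adjusted p = 0.163). The groups did not overlap for Cd3d. The median of the list moved to -0.03 without ADX replicate 1 and to -0.40 without ADX replicate 2. Among 15 members of the B lymphocyte list, 14 were positive with a median of 0.20, none with an unadjusted p under 0.05 and 5 with no overlap, against 8.07% of all genes higher. With each CT04 library left out, the median of the B lymphocyte list ranged from 0.17 to 0.30. Ms4a1, which encodes CD20, stood at 46.6, 50.8 and 51.2 CPM in ADX, against 32.6, 40.4 and 46.3 CPM in sham (log2 fold change 0.32 ± 0.18, adjusted p = 0.602). Cd22, an inhibitory receptor of B cells, averaged 56.9 ± 4.13 CPM in ADX and 48.8 ± 2.99 CPM in sham. Over the other 5 times all 15 were positive with a median of 0.32.

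Pla2g2d, a secreted phospholipase A2 of lymphoid tissue (ENSMUSG00000041202, chromosome 4, 138775735 to 138782046), had higher levels in ADX. It stood at 23.6, 13.9 and 26.7 CPM in ADX, against 6.63, 10.4 and 7.41 CPM in sham. The lowest ADX library, replicate 2, lay above the highest sham library. The log2 fold change was 1.39 ± 0.33 (adjusted p = 0.150 by edgeR, 0.0436 by DESeq2). Over the other 5 times it was 1.18 ± 0.15, which passed edgeR (adjusted p = 4.0e-04). The difference between the estimates was 0.21 (adjusted p = 0.947 by edgeR). With libraries high in muscle and pituitary transcripts removed, edgeR called no gene over the other times. Variable segments of the kappa light chain lay on both sides. Igkv4-91 averaged 3.38 ± 1.22 CPM in ADX and 0.870 ± 0.243 CPM in sham, whereas Igkv17-127 averaged 3.03 ± 0.959 CPM in ADX and 7.46 ± 4.27 CPM in sham. Igkv4-59 averaged 2.42 ± 0.775 CPM in ADX and 5.09 ± 1.16 CPM in sham, and none of the 3 segments passed either test. Such segments resemble each other closely, so that single levels are uncertain.

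Among the transcripts with higher levels in ADX, several are known from neurons. Shisal1, a membrane protein related to the shisa family (ENSMUSG00000062760, chromosome 15, 84379203 to 84447097), stood at 22.3, 20.4 and 13.6 CPM in ADX, against 8.79, 10.1 and 11.5 CPM in sham. Its log2 fold change was 0.89 ± 0.17 (adjusted p = 0.0733 by edgeR, 0.00203 by DESeq2). Robo2, a receptor for the axon guidance ligand SLIT, stood at 14.9, 11.8 and 8.38 CPM in ADX, against 6.86, 7.12 and 7.82 CPM in sham (log2 fold change 0.68 ± 0.15, adjusted p = 0.144 by edgeR, 0.0166 by DESeq2). In both genes ADX replicate 3 was nearest to sham, and without it edgeR called both, with log2 fold changes of 1.08 (adjusted p = 0.0107) and 0.88 (adjusted p = 0.0110). Without ADX replicate 1 they were 0.76 and 0.48 (adjusted p = 0.377 and 0.610). Isl2, a LIM homeodomain factor of neurons, stood at 9.85, 7.37 and 5.61 CPM in ADX, against 3.94, 3.40 and 5.51 CPM in sham (log2 fold change 0.82 ± 0.20, adjusted p = 0.0416 by DESeq2, 0.153 by edgeR). P2rx3, an ATP-gated channel of sensory neurons, stood at 10.8, 10.3 and 4.19 CPM in ADX, against 3.18, 3.08 and 3.298 CPM in sham (log2 fold change 1.40 ± 0.40, adjusted p = 0.222). Npy, a neuropeptide of sympathetic fibres among others, averaged 2.22 ± 0.557 CPM in ADX and 1.14 ± 0.429 CPM in sham.

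Some neuronal markers had the same order of ADX replicates as these genes, whereas the summed level of their list did not. The part of neuronal content in the result was not tested. Of the 16 members of the spiral ganglion neuron list, 14 were positive with a median of 0.17, 4 had an unadjusted p under 0.05, against 3.91% of all genes in that direction, and 4 did not overlap, against 8.07%. The summed level of the spiral ganglion neuron list was 3587, 3728 and 3559 CPM in ADX and 3446, 2988 and 3308 CPM in sham, and all 16 markers passed the filter on low counts. The score of that list, a mean of centred log2 CPM, varied more between the ADX libraries. It ranged from -0.04 to 0.40 in ADX and from -0.22 to 0.03 in sham at CT04, and from -0.36 to 0.35 in the libraries of other times. Prph, a filament of peripheral neurons, stood at 46.9, 18.5 and 2.09 CPM in ADX, against 2.12, 1.93 and 7.04 CPM in sham, so that ADX replicate 3 lay among the sham libraries. Tubb3, the neuronal tubulin, stood at 149.6, 122 and 94.7 CPM in ADX, against 91.8, 76.2 and 86.4 CPM in sham (log2 fold change 0.53 ± 0.18, adjusted p = 0.337). The same order of ADX replicates held for Stmn2, a microtubule regulator of axons, at 83.9, 58.0 and 41.9 CPM in ADX, against 46.6, 37.7 and 49.3 CPM in sham. Schwann cell and myelin genes were positive for 13 of 14 members, with a median of 0.12 and none at an unadjusted p under 0.05. Their median ranged from 0.042 without ADX replicate 2 to 0.227 without sham replicate 1.

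Further transcripts higher in ADX included Abca8a, a lipid transporter, at 46.4, 31.2 and 31.0 CPM in ADX, against 26.9, 22.3 and 25.0 CPM in sham (log2 fold change 0.54 ± 0.11, adjusted p = 0.103 by edgeR, 0.00510 by DESeq2). Stbd1, a glycogen-binding protein, stood at 4.57, 5.02 and 3.18 CPM in ADX, against 1.93, 2.15 and 2.55 CPM in sham (log2 fold change 0.94 ± 0.21). Rasgrp1, an activator of Ras, stood at 64.4, 45.5 and 52.5 CPM in ADX, against 38.4, 41.3 and 41.8 CPM in sham (log2 fold change 0.42 ± 0.09). Stbd1 and Rasgrp1 passed DESeq2 (adjusted p = 0.0214) and not edgeR (adjusted p = 0.150). Pappa2, a protease that cleaves binding proteins of insulin-like growth factors, averaged 4.097 ± 1.06 CPM in ADX and 1.91 ± 0.430 CPM in sham (log2 fold change 1.10 ± 0.27, adjusted p = 0.0416 by DESeq2). Gm15663, a gene model with no assigned function, averaged 3.12 ± 0.0976 CPM in ADX and 1.91 ± 0.225 CPM in sham. Its effect at CT04 differed from that of the other times by 0.86, with the smallest p of that test (adjusted p = 0.236). Of the transcripts lower in ADX outside the blood, Has2, a hyaluronan synthase, averaged 1.06 ± 0.316 CPM in ADX and 2.105 ± 0.475 CPM in sham (log2 fold change -0.98 ± 0.23, adjusted p = 0.0416 by DESeq2, 0.150 by edgeR). Nags, which makes the activator of the urea cycle, averaged 0.725 ± 0.343 CPM in ADX and 1.52 ± 0.226 CPM in sham. Ttr had the lowest log2 fold change, -4.98 ± 1.64, which was -0.55 without sham replicate 2.

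Genes known to be induced by glucocorticoids differed little at CT04 on average over the 3 ADX libraries. Of the 30 members, 22 were negative with a median of -0.07, none passed edgeR or DESeq2, and 2 had an unadjusted p under 0.05, both lower, a share near the 5.39% of all genes. The median was -0.015 without ADX replicate 1. They were Lcn2, which also belongs to the neutrophil list, and Cebpd, a C/EBP factor, at 9.90, 10.8 and 10.7 CPM in ADX, against 12.32, 14.9 and 15.33 CPM in sham (log2 fold change -0.44 ± 0.13, adjusted p = 0.265). Several of the classical targets split the ADX libraries. Fkbp5, a cochaperone that restrains the glucocorticoid receptor, stood at 25.7, 39.9 and 25.5 CPM in ADX, against 38.2, 40.5 and 37.7 CPM in sham. Hif3a, an inhibitory hypoxia-inducible factor subunit, stood at 1.57, 4.51 and 1.46 CPM in ADX, against 4.06, 3.18 and 2.99 CPM in sham. Sult1a1, a phenol sulfotransferase, stood at 18.0, 38.0 and 18.0 CPM in ADX, against 32.8, 29.2 and 33.0 CPM in sham. In all 3, ADX replicates 1 and 3 lay below every sham library and ADX replicate 2 within or above the sham range. Their log2 fold changes were -0.35 ± 0.22, -0.42 ± 0.40 and -0.36 ± 0.28 with all libraries (adjusted p from 0.638 to 0.761). Without ADX replicate 2 they were -0.60, -1.17 and -0.81 (adjusted p = 0.337, 0.289 and 0.262). Without ADX replicate 1 they were -0.23, -0.17 and -0.17, and without ADX replicate 3 they were -0.23, -0.13 and -0.16.

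Some other targets, Tsc22d3, Dusp1 and Sgk1, showed no such split. Tsc22d3, which encodes the anti-inflammatory leucine zipper protein GILZ, stood at 76.7, 83.0 and 79.9 CPM in ADX, against 73.8, 81.3 and 78.8 CPM in sham. Dusp1, a phosphatase of MAP kinases, averaged 36.1 ± 3.78 CPM in ADX and 37.5 ± 3.201 CPM in sham, and Sgk1, a kinase that promotes sodium uptake, 105 ± 4.63 CPM in ADX and 110.1 ± 8.63 CPM in sham. For these 3 genes the log2 fold change was between -0.07 and 0.04, within the SE of each. Zbtb16, a zinc finger repressor, stood at 12.9, 30.2 and 17.9 CPM in ADX, against 17.7, 29.8 and 20.7 CPM in sham, with replicate 2 highest in both groups. Its log2 fold change was 0.09, -0.55 and -0.06 without ADX replicates 1, 2 and 3. Glul, another member of the list, had -0.05, -0.36 and -0.12. Over the mean of the other 5 times Dusp1 was lower in ADX by a log2 fold change of -0.27 ± 0.05 (adjusted p = 0.0146 by edgeR). Its CT04 effect differed from that by 0.22 (adjusted p = 0.846 by edgeR). The call of Dusp1 over the other times was lost with libraries high in muscle and pituitary transcripts removed. Mean Fkbp5 in ADX was 30.4, 41.4, 58.2, 61.1, 46.2 and 46.1 CPM from CT04 to CT24, and in sham 38.8, 39.6, 112, 69.2, 40.1 and 47.4 CPM. CT04 was the hour of lowest mean Fkbp5 in both groups.

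Of the 8 genes for corticosteroid receptors and hormone activation, Nr3c2, the mineralocorticoid receptor (ENSMUSG00000031618, chromosome 8, 76899442 to 77245012), had the lowest p. It stood at 65.1, 48.1 and 57.3 CPM in ADX, against 43.2, 47.8 and 47.7 CPM in sham (log2 fold change 0.29 ± 0.10, adjusted p = 0.358). ADX replicate 2 lay just above the highest sham library, and the estimate was 0.41 without it (adjusted p = 0.165). Without ADX replicate 1 the estimate was 0.20, and without ADX replicate 3 it was 0.29. Nr3c1, the glucocorticoid receptor, averaged 124 ± 13.9 CPM in ADX and 117 ± 6.91 CPM in sham. Hsd11b1, which regenerates active corticosterone inside cells, averaged 23.8 ± 0.815 CPM in ADX and 26.8 ± 4.80 CPM in sham, and Hsd11b2, which inactivates it, 0.882 ± 0.152 CPM in ADX and 0.860 ± 0.0646 CPM in sham. The list had 6 positive members and a median of 0.03.

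**Figure D3:**
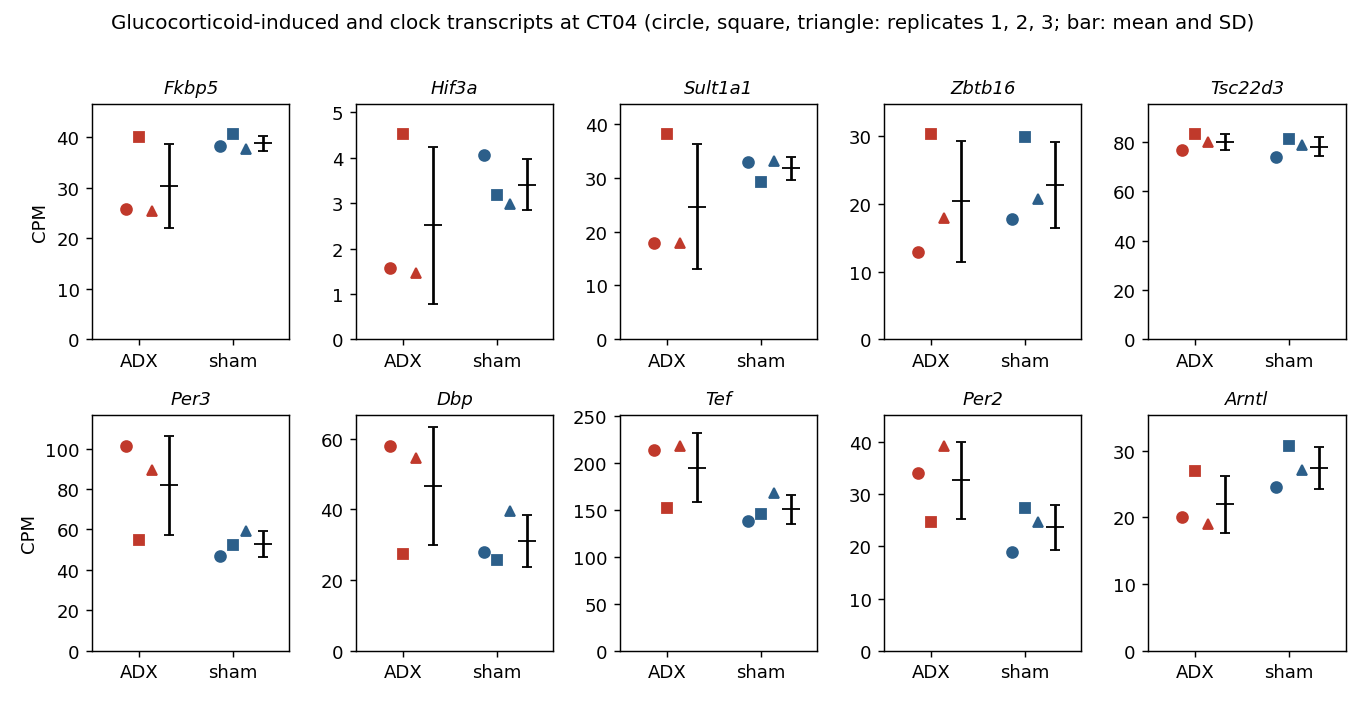
Level in CPM of 5 glucocorticoid-induced and 5 clock transcripts in the 3 ADX (left) and 3 sham (right) libraries at CT04, with replicates 1, 2 and 3 as circle, square and triangle and the mean and SD of each group. ADX replicate 2 lies in or near the sham range for Fkbp5, Sult1a1, Per3, Dbp and Tef, whereas ADX replicates 1 and 3 lie outside it.

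In the circadian clock, Arntl (which encodes BMAL1) and Clock or Npas2 drive the Per and Cry repressors and the output factors Dbp, Tef and Hlf, which bind D-box motifs. The promoter of Per3 is shown because it holds the D-box motif TTANGTAA, in capitals, at 2 sites (GRCm38.p6, chr4:151044616-151044915, minus strand, from RefSeq).
Per3: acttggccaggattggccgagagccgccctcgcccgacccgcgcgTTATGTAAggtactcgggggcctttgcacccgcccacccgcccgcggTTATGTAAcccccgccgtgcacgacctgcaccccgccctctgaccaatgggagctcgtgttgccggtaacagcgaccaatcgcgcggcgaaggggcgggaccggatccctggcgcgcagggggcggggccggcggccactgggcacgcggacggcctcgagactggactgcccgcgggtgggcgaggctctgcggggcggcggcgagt
The motif, or TTACNTAA on the other strand, was found in 2 of the 17 clock genes whose promoter could be matched (Per3 and Rorb) and in 763 of all 32851 promoters (2.32%).

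Per3, Per2, Dbp and Tef had higher levels than in any sham library in 2 of the 3 ADX libraries, replicates 1 and 3. Per3 (ENSMUSG00000028957) stood at 101, 54.5 and 89.6 CPM in ADX, against 46.6, 52.4 and 59.1 CPM in sham. Replicate 2 of ADX lay within the sham range, and the other ADX libraries above it. The log2 fold change was 0.63 ± 0.16 (adjusted p = 0.153 by edgeR, 0.0416 by DESeq2), and 0.86 without ADX replicate 2 (adjusted p = 0.0350 by edgeR). It was 0.46 without ADX replicate 1 (adjusted p = 0.769 by edgeR) and 0.57 without ADX replicate 3 (adjusted p = 0.328 by edgeR). Dbp stood at 58.0, 27.4 and 54.4 CPM in ADX, against 27.9, 25.6 and 39.5 CPM in sham, and Tef at 214, 153 and 219 CPM in ADX, against 138, 146 and 168 CPM in sham. Their log2 fold changes were 0.58 ± 0.25 (adjusted p = 0.473) and 0.37 ± 0.12 (adjusted p = 0.285), and 0.86 and 0.53 without ADX replicate 2 (adjusted p = 0.195 and 0.0791). Without ADX replicate 1 they were 0.41 and 0.31, and without ADX replicate 3 they were 0.46 and 0.29 (adjusted p from 0.561 to 0.955 by edgeR). Per2 stood at 34.0, 24.6 and 39.4 CPM in ADX, against 18.95, 27.4 and 24.6 CPM in sham (log2 fold change 0.46 ± 0.14, adjusted p = 0.259). Cry2 stood at 74.9, 63.8 and 75.2 CPM in ADX, against 58.9, 59.3 and 62.4 CPM in sham, and did not overlap (log2 fold change 0.24 ± 0.07, adjusted p = 0.261). Of the 8 repressors, 7 were positive with a median of 0.19, and 4 had an unadjusted p under 0.05, against 3.91% of all genes. With each CT04 library left out, that median ranged from 0.143 to 0.316. Of the 4 output factors, 3 were positive and 3 had an unadjusted p under 0.05, against the same share.

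Activators leaned the other way. Arntl stood at 20.01, 26.9 and 18.97 CPM in ADX, against 24.5, 30.7 and 27.0 CPM in sham (log2 fold change -0.32 ± 0.14, adjusted p = 0.488). Npas2 stood at 10.7, 18.3 and 11.7 CPM in ADX, against 16.7, 20.04 and 14.9 CPM in sham (log2 fold change -0.34 ± 0.22, adjusted p = 0.647), with ADX replicate 2 again in the sham range. Clock averaged 62.1 ± 0.597 CPM in ADX and 61.8 ± 4.54 CPM in sham. Nr1d1, which encodes REV-ERB alpha, a nuclear receptor that represses Arntl, averaged 84.2 ± 4.06 CPM in ADX and 86.4 ± 13.7 CPM in sham and passed neither edgeR nor DESeq2. Taken over 20 clock genes, ADX replicate 2 was the ADX library closest to the sham mean for 16 (80.0%), against 41.4% of 17612 genes with a mean of at least 1 CPM. For the glucocorticoid-induced list it was 15 of 30 (50.0%). No clock gene passed the test of the CT04 effect against that of the other times.

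The levels of these genes were then set against the day. In ADX, mean Per3 was 81.9, 105, 145, 100.3, 80.1 and 52.0 CPM from CT04 to CT24, and in sham 52.7, 118, 150, 98.6, 59.7 and 43.6 CPM. Both groups were highest at CT12, and the largest gap between them was at CT04. Mean Dbp was 46.6, 87.5, 106, 36.0, 23.3 and 18.97 CPM in ADX and 31.0, 121, 122, 26.5, 15.8 and 13.3 CPM in sham, higher in ADX at CT04, CT16, CT20 and CT24 and lower at CT08 and CT12. Mean Arntl was 21.9, 13.4, 8.83, 13.1, 23.2 and 26.7 CPM in ADX and 27.4, 10.6, 7.66, 14.1, 28.0 and 31.3 CPM in sham, lower in ADX at CT04, CT16, CT20 and CT24 and higher at CT08 and CT12.

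**Figure D4:**
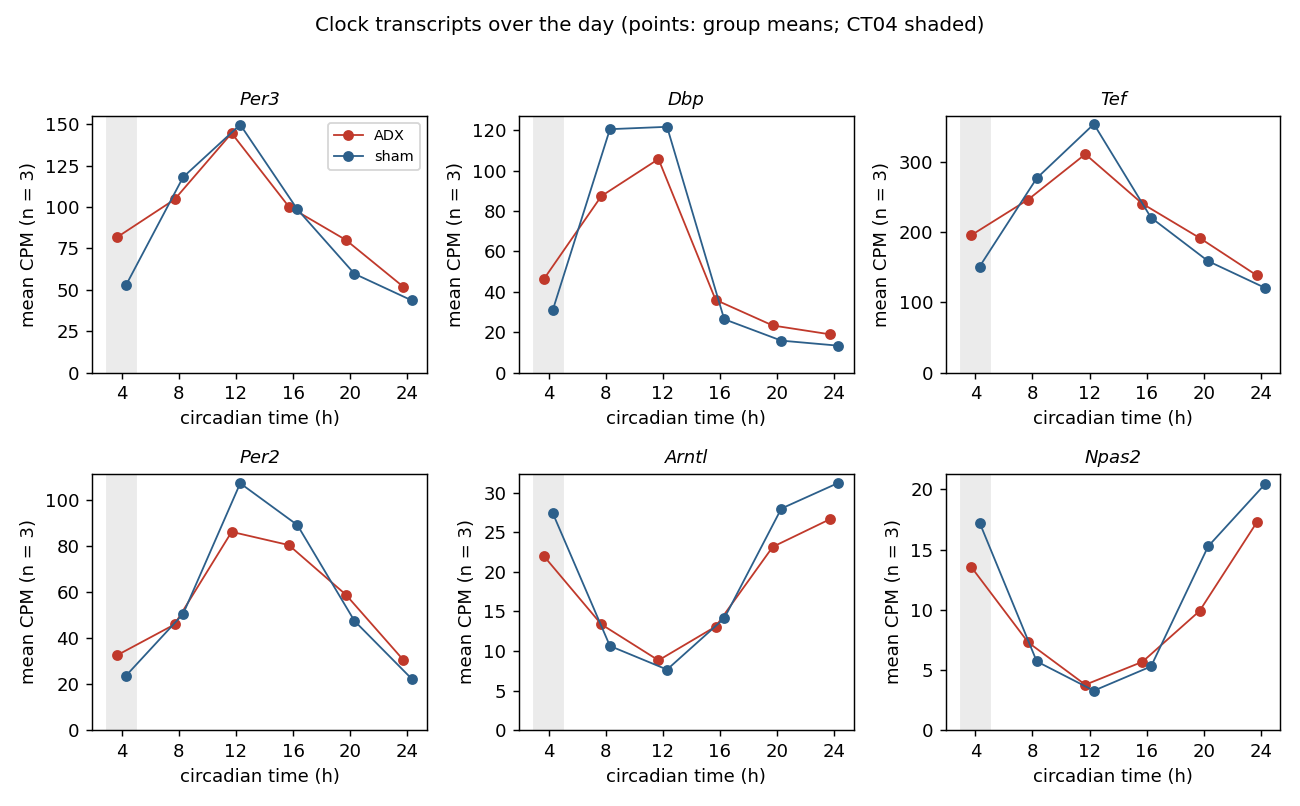
Mean CPM of 6 clock transcripts at each of the 6 circadian times in ADX and sham, with 3 libraries per point, ADX drawn slightly left of sham and CT04 shaded. At CT04 mean Per3 is 81.9 CPM in ADX and 52.7 CPM in sham, and mean Arntl 21.9 CPM in ADX and 27.4 CPM in sham.

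Genes that mark hair cells, supporting cells and the stria vascularis differed little. The spiral ganglion neuron list, described above, had a median of 0.17. Of 19 hair cell genes, 16 were positive with a median of 0.09, none with an unadjusted p under 0.05 and none without overlap. Strc, a protein of the hair bundle, stood at 14.8, 17.5 and 15.5 CPM in ADX, against a mean of 13.998 ± 1.82 CPM in sham, with overlapping groups. Among 12 supporting cell genes the median was 0.04, and 1 had an unadjusted p under 0.05. That gene was Ceacam16, a protein of the tectorial membrane, at 502, 362 and 529.5 CPM in ADX, against 341, 373 and 378 CPM in sham (log2 fold change 0.35 ± 0.15, adjusted p = 0.479). Here too ADX replicate 2 lay within the sham range. Among 18 genes of the stria vascularis, which secretes the endolymph, 8 were positive and 10 negative with a median of -0.02, and none had an unadjusted p under 0.05. The 8 sodium transport genes, among them targets of aldosterone in kidney, had a median of 0.03 with none at an unadjusted p under 0.05. Osteoblast and bone matrix genes were negative for 12 of 14 members, with a median of -0.10 at CT04 and -0.24 over the other 5 times. The CT04 median turned to 0.018 without ADX replicate 2 and to 0.005 without sham replicate 1. With each CT04 library left out, the medians ranged from 0.021 to 0.163 for the hair cell, -0.031 to 0.130 for the supporting cell, -0.080 to 0.025 for the stria vascularis and -0.043 to 0.064 for the sodium transport list.

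**Figure D5:**
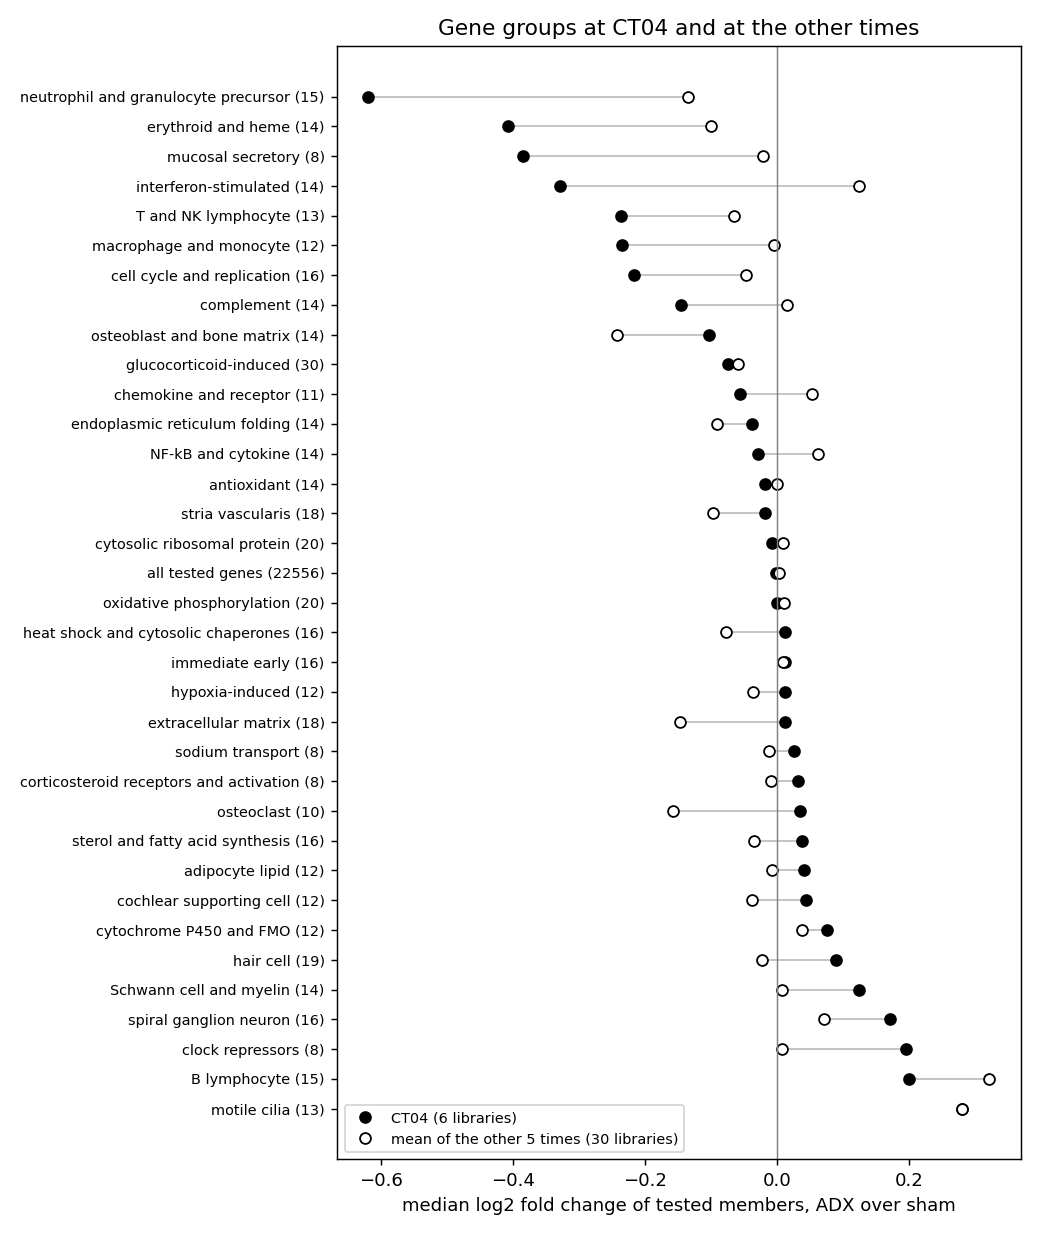
Median log2 fold change (ADX over sham) of the tested members of each gene list, with the number of members in brackets, at CT04 (filled) and over the mean of the other 5 times (open). The neutrophil list lies lowest at CT04, at -0.62 against -0.14 at the other times, and the list of all tested genes lies at -0.002.

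Across 17711 genes, the log2 fold changes of CT04 had a Pearson correlation of 0.29 with those of the mean of the other 5 times, which share no library with CT04 but share dissection and strain. By hour it was -0.06 at CT08, -0.10 at CT12, 0.26 at CT16, 0.30 at CT20 and 0.29 at CT24. Genes are not independent replicates, and the values describe these libraries only. Over the mean of the other 5 times edgeR called 25 of 22556 genes (0.111%), 12 higher (0.0532%) and 13 lower (0.0576%) in ADX. At an unadjusted p under 0.05 there were 2754 genes, with 6.80% of all genes higher and 5.41% lower, and DESeq2 called 210 of 19577 (1.07%), with 0.495% higher and 0.577% lower. Thbs4, a thrombospondin of the extracellular matrix, was called there by edgeR (log2 fold change -0.53 ± 0.09, adjusted p = 0.0120) and had -0.68 ± 0.21 at CT04 (adjusted p = 0.259), at 7.79, 11.8 and 12.35 CPM in ADX, against 15.96, 18.4 and 17.2 CPM in sham. No gene was called by edgeR over the other times once libraries high in muscle and pituitary transcripts were removed.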

How the data were processed

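Cochlear RNA was made into stranded mRNA libraries and sequenced as 100-base single reads, per the labels' protocols. The submitters' processing notes name STAR 2.4.0i and the build mm10. The counting program, annotation and strand setting were not given in the sources used here, so reads of overlapping or antisense genes may be mixed. The deposited table holds the authors' raw counts for 39017 Ensembl genes in 36 libraries. Its headers give times 1 h earlier than the labels for most columns, so columns were mapped by status, replicate and the labelled time no more than 1 h away, which left 0 unmapped. GENCODE M21 (GRCm38) matched 37693 IDs (96.6%).

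Counts were fitted in R 4.3.3 with edgeR 4.0.16 (TMM, filterByExpr, quasi-likelihood test, 12 group means over 36 libraries, 24 residual degrees of freedom, Benjamini-Hochberg over 22556 genes). The 16461 genes filtered out held 0.0779% of counts. Log2 CPM with a prior count of 2 served for the principal components and for the deviations of replicates. Scores used log2 CPM with a small constant added to each CPM. Replicates of CT04 differed beyond counting noise, with a chi-square of 8.63 to 14.8 for each degree of freedom. The labels do not say that libraries came from separate animals, so the p-values cover only the spread between libraries, which may be technical. An exact permutation test of 3 against 3 cannot go below 0.1. The labels give pools of 6 libraries but not which library was in which pool.

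The members, lists, motifs and rules were chosen with earlier results of these data known. Named genes were any called by edgeR, the 12 largest log2 fold changes per direction among genes with p under 0.05, at least 1 CPM and no overlap, the 6 of smallest DESeq2 p per direction, the glucocorticoid, receptor and clock lists, up to 4 members of each other list by p, 4 markers of carried-over tissue, and the 6 smallest p of CT04 against the other times. S100a9, Ngp, Csf3r, Ly6g, Cd177 and Padi4 lie outside this rule and were chosen after their values were seen. The alternatives were DESeq2 1.42.0, its size factors in edgeR, no filter, limma-voom (limma 3.58.1), the replicate number as a block, the 6 libraries alone and each library left out. Removal of 3 libraries high in muscle and 4 high in pituitary transcripts was added after seeing the data. On simulated counts of 22556 genes, the CT04 test recovered 55 of 100 genes changed by 0.5 and 87 of 100 changed by 1 on the log2 scale, with 6 false calls among 148. Counts were drawn independently for each gene and library, and the changed genes had a mean of at least 1 CPM. Outlying libraries and variation shared between genes were not simulated, so recovery in the real libraries may be lower.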

Additional observations from a re-analysis of the deposited data

How the results depend on the processing

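At CT04, edgeR called 0 genes, also with DESeq2's size factors, as did limma-voom. DESeq2 called 73, edgeR without a filter 1 (Cxcr2), and the 6 CT04 libraries alone 24, all lower, of which 17 were among DESeq2's 73. Without the 3 muscle-high libraries it called 9, without the 4 pituitary-high ones 2 and without all 7 again 9, all of them among DESeq2's 73. With each library left out the count ranged from 0 to 10: 1 without ADX CT04 replicate 2, 4 without ADX CT04 replicate 3, 3 without ADX CT20 replicate 2, 10 without ADX CT20 replicate 3, 2 without ADX CT24 replicate 1, 4 without ADX CT24 replicate 2, 3 without sham CT20 replicate 2 and 0 without any of the others. Same-numbered ADX and sham libraries of CT04 correlated at -0.12, -0.02 and -0.17 in their deviations, and unlike-numbered ones at -0.14 to 0.28. So few values cannot settle whether replicate numbers pair the samples. With the replicate block 1 gene was called (Cxcr2), and 0 with the block in the 6 libraries alone.

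The difference between CT04 and the other times gave 0 genes in every alternative run. Over the other 5 times edgeR called 25 genes, DESeq2 210, edgeR without the muscle-high libraries 13, without the pituitary-high ones 3 and without all 7 none (0). With each library left out that count ranged from 12 to 187. It was 187 without sham CT20 replicate 1. It was 40 to 60 without replicate 1 of ADX at CT08, CT12 or CT20, replicate 3 of ADX at CT16, replicate 2 of ADX at CT20 or replicate 2 of sham at CT08. It was 12 to 16 without replicate 1 of ADX at CT16 or CT24, replicate 2 of ADX at CT12 or CT16, replicate 3 of ADX at CT12 or CT20, any sham library of CT16, replicate 3 of sham at CT12 or CT20, or replicate 2 of sham at CT20 or CT24.

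With each library left out, 6 named genes near 0 changed sign: Zbtb16 (-0.552 to 0.098), Tsc22d3 (-0.005 to 0.074), Dusp1 (-0.111 to 0.040), Nr1d1 (-0.133 to 0.099), Clock (-0.050 to 0.062) and Hsd11b2 (-0.105 to 0.155). List medians that moved by more than the spread between libraries ranged from -0.042 to 0.106 for immediate early genes, -0.400 to -0.028 for T and NK lymphocytes, -0.315 to -0.146 for macrophages, -0.513 to 0.333 for skeletal muscle, -0.207 to 1.26 for pituitary hormones, -0.478 to -0.256 for mucosal secretion, -0.258 to 0.166 for adipocyte lipid, -0.077 to -0.013 for chemokines and -0.199 to -0.043 for complement. Other medians moved by over 1.5 times or turned sign without exceeding that spread. Among them were -0.546 to -0.234 for erythroid, -0.287 to -0.065 for cell cycle, -0.427 to -0.141 for interferon-stimulated and -0.173 to 0.018 for osteoblast genes. The neutrophil median lay between -0.654 and -0.558. The causes were not tested.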

Other observations

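Further gene groups are given as values. Genes of the middle ear lining, which can be carried over with the cochlea, lay on both sides at CT04. Motile cilia genes were positive for 12 of 13 members with a median of 0.28, which was 0.16 without ADX replicate 1 and 0.12 without sham replicate 1. By hour the median was -0.14 at CT08, 0.49 at CT12, 0.16 at CT16, 0.92 at CT20 and -0.033 at CT24. Dnah9, a dynein of the ciliary outer arm, stood at 27.0, 16.9 and 22.1 CPM in ADX, against 10.2, 11.7 and 18.2 CPM in sham, with overlapping groups. Of 8 mucosal secretory genes, 6 were negative with a median of -0.39, and 2 had an unadjusted p under 0.05, against 5.39% of all genes lower. They were Ltf, shared with the neutrophil list, and Lyz1, a lysozyme close in sequence to Lyz2, at 5.33, 6.93 and 4.71 CPM in ADX, against 8.60, 8.19 and 10.8 CPM in sham.

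Complement genes had a median of -0.15, with 2 higher and 4 lower at an unadjusted p under 0.05, against 3.91% and 5.39% of all genes. The median was -0.094 without ADX replicate 1 and -0.043 without ADX replicate 3. The C1q chains among them also stand in the macrophage list, whereas Cfb, a protease of the alternative pathway, averaged 17.7 CPM in ADX and 14.7 CPM in sham with no overlap (log2 fold change 0.26 ± 0.10, adjusted p = 0.420 by edgeR). Among chemokine genes, Cxcl13, which attracts B cells, averaged 1.05 ± 0.258 CPM in ADX and 0.523 ± 0.0627 CPM in sham, and Ccl6, a chemokine of myeloid cells, 24.8 ± 4.38 CPM in ADX and 32.5 ± 2.62 CPM in sham. Of 18 extracellular matrix genes, 9 were positive and 9 negative, with a median of 0.01. At an unadjusted p under 0.05, 2 of the 18 were higher and 3 lower, against 3.91% and 5.39% of all genes. Among the positive members, Dcn, the proteoglycan decorin, stood at 939, 581 and 768 CPM in ADX, against 563, 523 and 556 CPM in sham, and Eln, which encodes elastin, averaged 10.8 ± 0.996 CPM in ADX and 7.64 ± 1.08 CPM in sham. Neither passed edgeR or DESeq2. Oxidative phosphorylation and cytosolic ribosomal protein genes had medians of -0.001 and -0.01, and both signs with single libraries left out. Heat shock genes had a median of 0.01 at CT04 (-0.054 to 0.038 with each library left out), whereas all 16 were negative over the other 5 times with a median of -0.08.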
